A study of Homo sapiens with 3 samples.

Results

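The 5 genes described here, MSH6, MSH3, PMS2, PMS1 and MLH3, encode subunits of the DNA mismatch repair machinery. They were taken from the count table by gene symbol, without regard to their values, and make up 5 of its 27574 genes. All 5 were detected, meaning that each had at least 10 counts in every library. The study sequenced total RNA in 3 libraries of cells labelled H82_R, called H82R here and numbered replicates 1, 2 and 3. The cell line, H82, comes from a human small cell lung cancer and is long established. Every library carries the same treatment label, etoposide plus cisplatin, without a dose or time. Etoposide is a topoisomerase II poison that leaves DNA breaks, and cisplatin crosslinks DNA bases. There is 1 group and no untreated or parental sample among the libraries, so the values below are levels in these cells and their spread between libraries, not responses to the drugs. Separate cultures are not mentioned for the 3 libraries, so p-values reflect only how far these samples differ, and that spread may be technical.

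Mismatch repair removes errors that DNA polymerases leave behind. MutS-type proteins find the error: MSH6 belongs to the complex that reads single mismatches and short loops, and MSH3 to the complex that reads larger insertion and deletion loops. MutL-type proteins then act: PMS2 carries the endonuclease that nicks the new strand, MLH3 carries a related endonuclease best known from meiotic crossovers, and PMS1 lacks that nuclease site and has no settled part in repair. Exonuclease 1, the sliding clamp PCNA, its loader, the single-strand binding protein RPA, DNA polymerase delta and DNA ligase 1 complete the excision and refilling. Some mismatch repair proteins also bind cisplatin adducts, and loss of some proteins of the pathway is a known route to platinum tolerance in cell models.

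The levels of the 5 genes spanned a wide range, with MSH6 at the top and MLH3 at the bottom, and the stretches of sequence upstream of these 5 genes also differed. The following sequences come from RefSeq on GRCh38.p14, where all 5 genes have an entry in the promoter table, and each is read 5′ to 3′ on the strand of the named gene. They are shown because they cover the most and the least abundant gene and the start regions that PMS1 and PMS2 share with a neighbour on the other strand. Capitals mark matches, on either strand, to a searched motif. The GC box was searched for as GGGCGG. The box bound by NF-Y was searched for as CCAAT. The E2F motif was spelled TTTNGCGC, the cAMP response element TGACGTCA and the NRF1 motif GCATGCGC. These motifs and TATAAA, the TATA box, were picked after the sequences had been looked at, and a match is a description of letters only.
MSH6, the 250 bases before its start, chr2:47782895-47783144, plus strand: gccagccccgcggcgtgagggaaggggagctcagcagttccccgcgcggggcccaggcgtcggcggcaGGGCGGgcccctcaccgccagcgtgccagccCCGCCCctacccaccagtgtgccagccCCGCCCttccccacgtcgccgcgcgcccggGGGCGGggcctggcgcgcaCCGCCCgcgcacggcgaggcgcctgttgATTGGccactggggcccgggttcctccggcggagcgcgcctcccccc
MLH3, the 250 bases before its start, chr14:75051468-75051717, minus strand: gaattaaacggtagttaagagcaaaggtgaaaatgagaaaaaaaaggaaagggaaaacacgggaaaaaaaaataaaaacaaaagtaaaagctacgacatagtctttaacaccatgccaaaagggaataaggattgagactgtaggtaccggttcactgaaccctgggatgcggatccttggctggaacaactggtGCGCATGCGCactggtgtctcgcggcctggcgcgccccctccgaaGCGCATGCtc
PMS1, the 110 bases between its start and that of ORMDL1, chr2:189784340-189784449, plus strand: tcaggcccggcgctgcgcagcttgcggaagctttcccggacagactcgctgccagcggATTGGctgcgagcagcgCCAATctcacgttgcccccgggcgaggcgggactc
PMS2, the 165 bases between its start and that of AIMP2, chr7:6009107-6009271, minus strand: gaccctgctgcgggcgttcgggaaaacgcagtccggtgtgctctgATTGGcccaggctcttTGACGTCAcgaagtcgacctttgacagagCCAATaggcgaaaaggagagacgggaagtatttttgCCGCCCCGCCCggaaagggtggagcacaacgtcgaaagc

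Each RefSeq promoter window covers 300 bases, from 250 before to 50 after the start. The MSH6 window was the richest in G and C, at 78%, and held 5 GC boxes and 1 CCAAT box. The MSH3 window had 71% G and C, 4 GC boxes and 2 overlapping E2F matches. The PMS1 window had 72% G and C, 1 GC box, which lies outside the stretch shown, and 2 CCAAT boxes. The PMS2 window had 60.7% G and C, 2 overlapping GC boxes, 3 CCAAT boxes, of which 1 lies outside the stretch shown, and 1 cAMP response element. The MLH3 window stood apart in letters: it had 51% G and C, the lowest share of the 5, no GC box, no CCAAT box and 3 NRF1 matches, of which 2 overlap. No window of the 5 held TATAAA. Over all 27305 promoters in the table the share with at least 1 match was 44.6% for the GC box, 35.7% for the CCAAT box, 12.0% for TATAAA, 1.83% for the E2F motif, 1.98% for the cAMP response element and 3.27% for the NRF1 motif.

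The libraries held between 23868201 and 42610181 counts, and 14612 genes were detected. Values are given as CPM, counts put on one scale of sequencing depth with TMM-adjusted library sizes. The median detected gene stood at 25.3, 24.8 and 25.1 CPM in replicates 1, 2 and 3. Pairs of libraries correlated across detected genes with Pearson's r from 0.986 to 0.991 on log2 CPM, a value across genes, which are not independent replicates. The labelled cell type was checked against its markers. By limma on CPM 7 of 8 neuroendocrine markers lay above the median gene, beside 45.9% of all detected genes. They were led per kb by UCHL1 (326 CPM) and NEUROD1 (371 CPM), while INSM1, at 9.33 CPM, lay below the median gene. Of 9 markers of fibroblasts, endothelium and immune cells, 5 were not detected (COL1A2, COL3A1, CDH5, PTPRC and CD14, with 0 to 16 counts in a library). Of the other 4, COL1A1 (0.685 CPM), PECAM1 (0.876 CPM) and CD3E (7.62 CPM) lay below the median gene, beside 46.1% of all detected genes. CD68 (22.6 CPM) was not distinguished from it by CPM. Per kb of exon CD68 lay above the median gene (log2 distance 0.89, limma adjusted p = 0.00012), and per kb of coding length it was not distinguished (0.17, limma adjusted p = 0.20). The GENCODE annotation assigns 97.6% of CD68's coding bases to another same-strand gene as well, and how reads on shared bases were counted is not given.

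MSH6, which recognises single mismatches, was the most abundant of the 5 genes. Its row held 6924, 10643 and 5855 counts, which correspond to 279, 249 and 244 CPM in replicates 1, 2 and 3, with a mean of 257 ± 18.7 CPM (SD, n = 3). The level in replicate 1 was highest, and the other libraries lay close together. MSH6 lay above 95.8% of detected genes, at 10.2 times the median gene. The test used for this is a one-sample limma test of each gene's log2 CPM against the median detected gene of the same library, adjusted with the Benjamini-Hochberg method over all 14612 detected genes. By this test MSH6 stood 3.35 ± 0.07 (SE) above the median gene on the log2 scale (limma adjusted p = 2.6e-09).

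MSH3, which recognises larger loops, was present at a moderate level. Its 1125, 1667 and 1070 counts gave 45.3, 39.0 and 44.6 CPM, with a mean of 43.0 ± 3.46 CPM (SD, n = 3). Replicate 2 was the lowest library for MSH3, and even there the gene lay above the median gene. Its log2 distance from the median gene was 0.77 ± 0.08 (SE, limma adjusted p = 2.7e-05).

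PMS1, the MutL-type subunit without the nuclease site, had the widest spread among the 4 genes with more than 100 counts in each library. Its counts were 1153, 1261 and 955, which gave 46.4, 29.5 and 39.9 CPM and a mean of 38.6 ± 8.53 CPM (SD, n = 3). Replicate 2, the deepest library, held the most counts for PMS1 and the lowest CPM. The gene lay 0.60 ± 0.12 (SE) above the median gene on the log2 scale (limma adjusted p = 0.0017).

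PMS2, which nicks the strand to be removed, lay just under the median gene. Its 511, 790 and 518 counts gave 20.6, 18.5 and 21.6 CPM, with a mean of 20.2 ± 1.59 CPM (SD, n = 3). All 3 libraries were below their own median gene, and the log2 distance was -0.31 ± 0.10 (SE, limma adjusted p = 0.015). This call was lost when any 1 library was left out (limma adjusted p from 0.058 to 0.13). The genome holds a family of PMS2 pseudogenes with closely similar sequence. None of the 14 searched for by name has a row in the table analysed here, and how shared reads were counted is not given, so the PMS2 counts are uncertain in that respect.

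MLH3, the MutL-type subunit of meiotic crossovers, was scarce. Its counts were 26, 73 and 31, which gave 1.05, 1.71 and 1.29 CPM and a mean of 1.35 ± 0.334 CPM (SD, n = 3). Replicate 2 was highest, and every library lay far under the median gene. The exact Poisson 95% intervals, which cover counting error only, were 0.684 to 1.53, 1.34 to 2.15 and 0.879 to 1.84 CPM and overlapped one another. MLH3 was above only 10.7% of detected genes, and its log2 distance from the median gene was -4.18 ± 0.21 (SE, limma adjusted p = 2.1e-07).

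By this test 3 of the 5 genes (MSH6, MSH3 and PMS1) lay above the median gene, and 2 (PMS2 and MLH3) lay below it. Of all detected genes 45.9% were called above and 46.1% below, so a call in either direction is common among these genes. The median over the 5 genes was 0.60 on the log2 scale, beside 0.00 over all detected genes by construction.

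**Figure D1:**
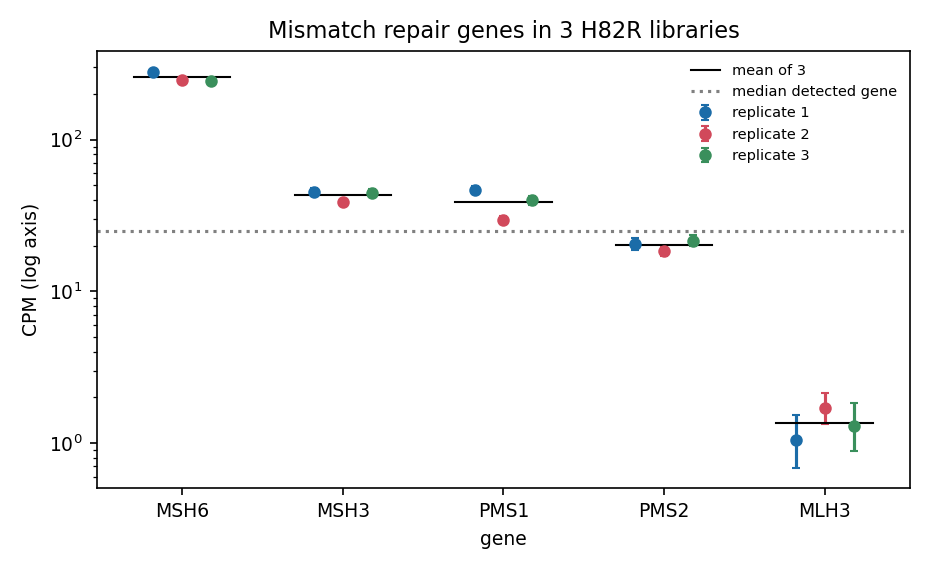
CPM of the 5 mismatch repair genes (log axis) in each of the 3 H82R libraries, with exact Poisson 95% intervals of counting error as bars, the mean as a black line and the median detected gene as a dotted line. MSH6 sits near 257 CPM in every library, MSH3 (mean 43.0 CPM) and PMS1 (mean 38.6 CPM) lie close together with PMS1 low in replicate 2, PMS2 lies just under the dotted line, and MLH3 lies near 1.35 CPM.

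Longer transcripts yield more fragments, so genes were compared with each other per kb of exon, using the union of all annotated exons in GENCODE release 29 on GRCh38. The order of the 5 genes by mean was the same on this scale as by CPM. MSH6 stood at 23.4 ± 1.70 CPM per kb (SD, n = 3), MSH3 at 9.13 ± 0.734, PMS1 at 7.08 ± 1.56, PMS2 at 5.14 ± 0.405 and MLH3 at 0.161 ± 0.0400. The median of the 13539 detected genes with an exon length was 5.55 CPM per kb. In percentiles of those genes, MSH6 lay at 86.9, MSH3 at 64.6, PMS1 at 56.6, PMS2 at 48.0 and MLH3 at 2.85.

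**Figure D2:**
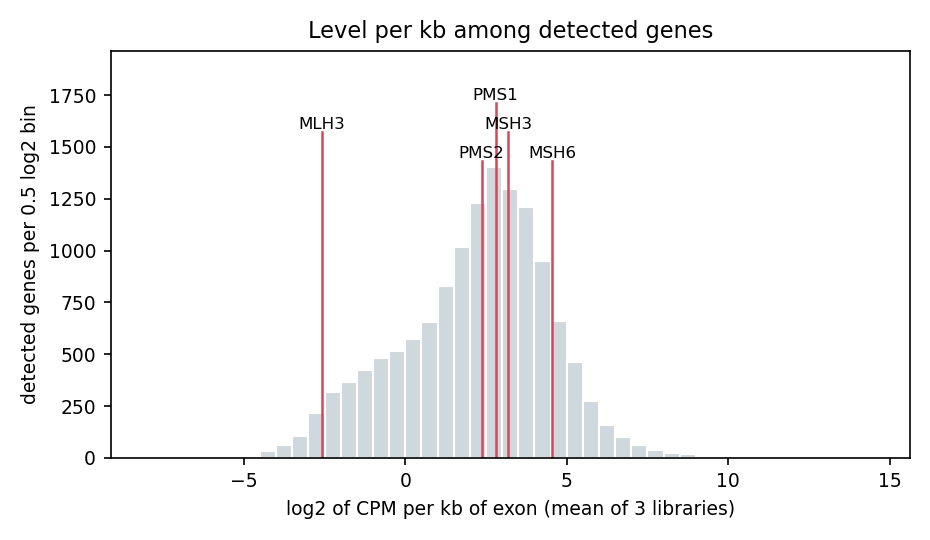
Number of detected genes in bins of log2 CPM per kb of exon (mean of 3 libraries), with red lines at the 5 mismatch repair genes. PMS2, PMS1 and MSH3 fall in the body of the distribution, MSH6 lies on its upper slope at percentile 86.9, and MLH3 lies in its lower tail at percentile 2.85.

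Per kb, MSH6 (log2 distance 2.07 ± 0.07, SE), MSH3 (0.72 ± 0.08) and PMS1 (0.33 ± 0.12) lay above the median gene, with limma adjusted p = 2.8e-08, 4.3e-05 and 0.032. MLH3 lay below it (-5.06 ± 0.21, limma adjusted p = 7.8e-08). PMS2 was not distinguished from it (-0.11 ± 0.10, limma adjusted p = 0.31). The counts of 3 above and 1 below compare with 45.3% of tested genes above and 45.1% below on this scale. The calls for MSH3, PMS1 and PMS2 depend on the length used. Divided by coding length instead, MSH3 (-0.54) and PMS1 (-0.55) lay under the median gene on the log2 scale (limma adjusted p = 0.00030 and 0.0030), while MSH6 stayed above it (1.77) and MLH3 below it (-5.87). PMS2 was called below it with coding length (-1.23, limma adjusted p = 4.6e-06) and with the length of the principal transcript (-0.30, 0.017). By coding length 1 of the 5 genes thus lay above the median gene and 4 below. Of 13362 genes tested with that length, 6061 were called above and 6079 below. PMS1's call per kb of exon was lost without replicate 1 (limma adjusted p = 0.17), without replicate 3 (0.063) and with a filter of at least 1 CPM in every library (0.36).

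The ratio of MSH6 RNA, for the mismatch-reading subunit, to MSH3 RNA, for the loop-reading subunit, was taken within each library. This removes the library size. Ratios of RNA do not give amounts of protein, which were not measured here. Per kb, MSH6 exceeded MSH3 by 2.64, 2.73 and 2.34 times in replicates 1, 2 and 3. The exact binomial (Clopper-Pearson) 95% intervals were 2.48 to 2.81, 2.60 to 2.88 and 2.20 to 2.50, so replicate 3 lay below replicate 2 by more than counting error. Per counts, with no length, the ratio was 6.15, 6.38 and 5.47. The direction was the same in all 3 libraries and under each measure of length.

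Among the MutL-type genes, PMS1 exceeded PMS2 by 1.63, 1.15 and 1.33 times per kb, with intervals of 1.47 to 1.81, 1.05 to 1.26 and 1.19 to 1.48. The ratio was lowest in replicate 2, where PMS1 was low. PMS2 exceeded MLH3 by 41.8, 23.0 and 35.5 times per kb, with intervals of 28.2 to 64.5, 18.1 to 29.6 and 24.7 to 52.8. MLH3 was thus the lowest MutL-type gene in every library, by a factor whose size the small MLH3 counts leave imprecise.

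The steadiest ratio was MSH3 to PMS2, at 1.84, 1.76 and 1.73 per kb (SD of log2 ratio 0.05). MSH3 and PMS1, neighbours in the order of levels, could not be ranked: their ratio per kb was 1.13, 1.53 and 1.30, but with coding length it was 0.865, 1.17 and 0.994. With the length of the principal transcript it was 0.769, 1.04 and 0.883. With 3 libraries the exact sign-flip test (two-sided) cannot give a p below 0.25, and that was the value for each of the 10 pairs of genes per kb, before and after Benjamini-Hochberg adjustment, so no pair could pass this test.

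The spread between libraries was set against counting error with a chi-square test of each gene's counts against the library sizes, adjusted over all detected genes. It called 4 of the 5 genes, beside 68.7% of all detected genes (10044 genes). The count fell with any library left out: 7888 genes were called without replicate 1, 5708 without replicate 2 and 7686 without replicate 3. Replicate 2 is the deepest library, and the part of its depth in the larger fall was not tested. The adjusted p was 5.7e-28 for PMS1, 2.2e-15 for MSH6, 0.00015 for MSH3 and 0.023 for PMS2. MLH3, with its few counts, was not called (adjusted p = 0.10). Leaving out replicate 2 ended the calls of MSH3 (adjusted p = 0.83) and PMS2 (0.57), and leaving out replicate 1 ended that of MSH6 (0.30). PMS2 also lost its call without replicate 3 (0.10). PMS1 kept its call with each library left out in turn (adjusted p up to 0.0021). Its highest library was 1.57 times its lowest, against 1.14 times for MSH6, 1.16 for MSH3 and 1.17 for PMS2.

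Replicate 2, the deepest library, was compared with the mean of the other libraries on the log2 CPM scale. PMS1 was 0.54 lower there (-0.54), which is percentile 4.0 of the 9624 genes with at least 10 CPM. MSH3 (-0.21), PMS2 (-0.19) and MSH6 (-0.07) were also lower, and MLH3, which is below 10 CPM, was 0.55 higher. Across those 9624 genes the difference moved with the GC content of the principal transcript (Pearson's r = 0.38 and Spearman's rho = 0.39, across genes of the same libraries, as a description). The median difference was -0.22 for genes under 40% GC and 0.08 for genes of at least 60% GC. PMS1 has 37.1% GC, and the 1033 genes within 2 percentage points of it had a median difference of -0.22, among which PMS1 was at percentile 17.9. The part of GC content in the low PMS1 value was not tested.

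**Figure D3:**
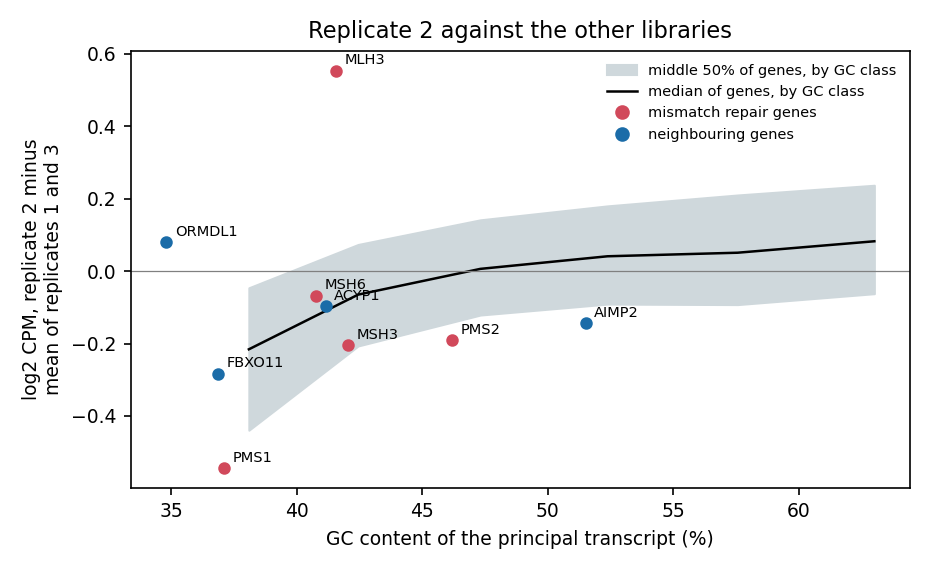
Log2 CPM in replicate 2 minus the mean of replicates 1 and 3, against the GC content of the principal transcript (%), for the 5 mismatch repair genes (red) and their neighbours (blue). The black line and grey band give the median and middle 50% of genes in classes of GC content. PMS1 lies at -0.54 under the band's low-GC end, ORMDL1 at 0.08 above it, and MLH3 at 0.55.

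Most of the genes that act after recognition lay above the median gene. Of 16 excision and resynthesis genes, 16 were detected. By limma 15 of them lay above the median gene per kb and 1 below it, beside 45.3% and 45.1% of all genes tested. The median log2 distance of the 16 genes per kb was 2.42, beside 0.33 for the 5 mismatch repair genes and 0.00 over all genes tested. PCNA, the sliding clamp, was highest at 192 ± 14.5 CPM per kb (SD, n = 3; log2 distance 5.11), and HMGB1, a DNA-bending protein that can assist excision, followed at 56.7 ± 9.15 (3.34). That order depends on the length: with coding length HMGB1 (676 CPM per kb) stood above PCNA (362), in CPM HMGB1 (438) and RFC1 (318) stood above PCNA (283), and with the principal transcript POLD2 (88.9 CPM per kb) came between PCNA (208) and HMGB1 (79.8). The count of 15 above and 1 below was the same with each of the 3 lengths. POLD4, the smallest subunit of DNA polymerase delta, was the gene below, with 20, 55 and 16 counts and 0.302 ± 0.107 CPM per kb (-4.15). GENCODE assigns 72.2% of its coding bases to a second, same-strand gene as well, and how reads on shared bases were counted is not given.

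**Figure D4:**
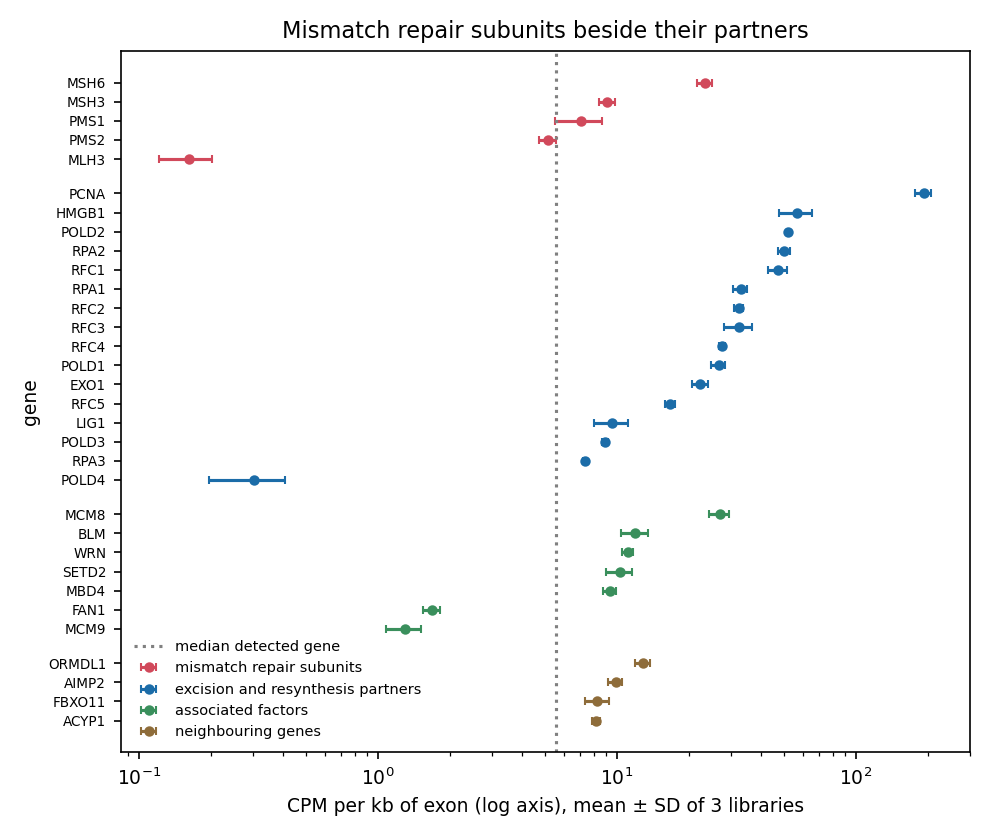
CPM per kb of exon (log axis, mean ± SD of 3 libraries) of the 5 mismatch repair genes, 16 excision and resynthesis partners, 7 associated factors and 4 neighbouring genes, each sorted by level, with the median detected gene (5.55 CPM per kb) as a dotted line. Nearly all partners lie to the right of the line, with PCNA farthest at 192 CPM per kb, and MLH3 and POLD4 lie far to the left.

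The partner or associated gene nearest to each mismatch repair gene was found among 23 genes by mean log2 CPM per kb, as a description of level over 3 libraries of 1 group. MSH6 lay nearest to EXO1, the exonuclease of mismatch repair (EXO1 minus MSH6, -0.07 on the log2 scale), then to POLD1, the catalytic subunit of polymerase delta. MSH3 lay nearest to POLD3, another polymerase delta subunit (-0.03), then to MBD4, a thymine glycosylase. PMS1 and PMS2 both lay nearest to RPA3, the smallest RPA subunit, at log2 differences of 0.08 and 0.51, then to POLD3. MLH3 had no close neighbour: the nearest, POLD4, was 0.91 higher, and the next, the helicase MCM9, 2.96 higher. These nearest genes are those by the exon union. With coding length the nearest gene was RPA3 for MSH6, SETD2 for MSH3 and PMS1, MCM9 for PMS2 and POLD4 for MLH3. With the principal transcript it was RFC5 for MSH6, RPA3 for MSH3, PMS1 and PMS2, and POLD4 for MLH3.

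Of 7 associated factors, which modify or borrow the pathway, 5 lay above the median gene per kb and 2 below it. The shares over all genes tested were 45.3% and 45.1%. The median log2 distance of the 7 factors was 0.88. The helicases MCM8 (27.0 ± 2.63 CPM per kb, SD, n = 3) and BLM (11.9 ± 1.52) were highest. MCM9, the partner of MCM8 and a helicase that binds mismatch repair proteins, was lowest at 1.30 ± 0.220. The other gene below was FAN1, a nuclease of crosslink repair that binds the MutL complex, at 1.68 ± 0.143; it is named after its value was seen. With coding length 1 of the 7, MCM8, lay above the median gene, 4 below it and 2 were not distinguished. The 4 below were SETD2, WRN, MCM9 and FAN1. Of the 13362 genes tested with that length, 6061 were called above and 6079 below.

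The meiotic MutS genes were scarce or without counts, like the meiotic MutL-type gene MLH3. MSH4 had 78, 65 and 47 counts, or 3.14, 1.52 and 1.96 CPM, and lay under the median gene per kb (log2 distance -3.06, limma adjusted p = 2.1e-06). MSH5 had 0 counts in all 3 libraries, which allows up to 0.121, 0.0702 and 0.125 CPM (3 counts in each library). In GENCODE 98.0% of MSH5's coding bases also belong to the read-through gene MSH5-SAPCD1 or to SAPCD1, so a count of 0 need not mean that no transcript is present.

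For comparison, 11 of 16 base excision repair genes lay above the median gene per kb and 3 below it, beside 45.3% and 45.1% of all genes tested. The median log2 distance of the 16 was 0.35. With coding length 8 of the 16 lay above the median gene and 7 below it. Of the 13362 genes tested with that length, 6061 were called above and 6079 below. Per kb of exon NEIL1, OGG1 and MPG lay below it, and POLB and NTHL1 were not distinguished from it. Of 19 nucleotide excision repair genes 18 were detected. Per kb of exon 8 lay above and 7 below, beside 45.3% and 45.1% of all genes tested, with a median of 0.02. ERCC1, CETN2 and XPC were not distinguished, and GTF2H4 had 0 counts in each library; GENCODE assigns 100% of its coding bases to a second, same-strand gene as well. These genes are named after their values were seen, and no difference between the pathways was tested.

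Of the mismatch repair genes, PMS1 and PMS2 begin close to the start of a gene on the other strand. The RefSeq starts of PMS1 and ORMDL1, a regulator of sphingolipid synthesis, are 111 bases apart, and those of PMS2 and AIMP2, a scaffold of the tRNA synthetase complex, 166 bases. ACYP1, an acylphosphatase, neighbours MLH3, and FBXO11, an F-box protein, neighbours MSH6.

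ORMDL1 had 1154, 2244 and 1271 counts and exceeded PMS1 by 1.38, 2.45 and 1.83 times per kb of exon. The size depends on the length: it was 6.58, 11.7 and 8.75 per kb of coding sequence, which is short in ORMDL1, and in counts its geometric mean was 1.33. On each of these scales the ratio was highest in replicate 2, where ORMDL1 was 0.08 higher than the mean of the other libraries on the log2 scale and PMS1 lower (-0.54). AIMP2 had 481, 725 and 434 counts, fewer than PMS2 in each library, and 2.02, 1.97 and 1.79 times its level per kb of exon.

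ACYP1 had 378, 616 and 374 counts and 66.0, 38.3 and 54.8 times the level of MLH3 per kb of exon (125, 72.7 and 104 times per kb of coding sequence, and 14.5, 8.44 and 12.1 times in counts), the widest gap between neighbours among these 4 pairs. FBXO11 had 1490, 2189 and 1552 counts and 0.334, 0.320 and 0.412 times the level of MSH6 per kb, so among these 4 pairs MSH6 alone stood above its neighbour per kb. All 4 neighbours lay above the median gene per kb of exon by limma, beside 45.3% of all genes tested. With coding length AIMP2 (0.03, limma adjusted p = 0.75) and FBXO11 (0.15, 0.13) were not distinguished from it, and with no length AIMP2 and ACYP1 lay below it. Of the 4 genes with a neighbour described here, the exon bases shared with it were 16.2% for MSH6, 1.89% for PMS1 and 0 for PMS2 and MLH3. Of the neighbours' own exon bases, 28.9% in AIMP2, 26.9% in FBXO11, 11.1% in ACYP1 and 2.60% in ORMDL1 also belong to another gene on either strand. Whether counting used the strand is not given, so reads on these shared bases cannot be told apart.

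By position, MSH6 (chr2:47695530-47810101) and PMS1 (chr2:189784085-189877629) are on chromosome 2, MSH3 (chr5:80654648-80876460) on chromosome 5, PMS2 (chr7:5973239-6009125) on chromosome 7 and MLH3 (chr14:75013764-75051532) on chromosome 14, as GENCODE release 29 gives them on GRCh38. PMS2 and MLH3 are read from the minus strand. The GENCODE gene of MSH6 begins upstream of the RefSeq start used for its promoter, at 47783145, which lengthens its exon union.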

How the data were processed

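Per the labels' protocols, TRIzol was used to extract total RNA from the H82R cells, and Illumina's instructions were followed for the libraries. The authors deposited 1 table of raw read counts per gene symbol, with 1 column for each of the 3 libraries, and columns were matched to libraries by title. The submitters' processing notes name STAR 2.6.1b and hg38 without saying what each was used for. For the counting program, annotation, strand setting and filters, the answer is not given in the sources used here. Some genes of the table are not reported here.

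Of 27587 names, 13 that a spreadsheet had turned into dates were left out (0.0665%, 0.0707% and 0.0736% of the counts of replicates 1, 2 and 3), which leaves 27574 genes and 25013265, 42610181 and 23868201 counts. CPM were computed with TMM factors of edgeR 4.0.16 (0.993, 1.00 and 1.00). Log2 CPM used a prior count of 2. Genes with at least 10 counts in every library were tested.

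The only group allows no contrast, so neither the quasi-likelihood test of edgeR nor a DESeq2 test was run. For levels, the two-sided test was limma-trend (limma 3.58.1 in R 4.3.3) with Benjamini-Hochberg adjustment over all genes tested and a threshold of 0.05. GENCODE release 29 (GRCh38, the same assembly as hg38) gave exon lengths and GC content: 19590 names matched directly, 497 through an older symbol and 7487 did not, and 92.7% of detected genes had a length. Reads carry no molecular identifiers, so intervals and floors cover counting error only. The level and spread tests were also run on simulated counts. The outcome is not given here, and no statement above rests on it.

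The genes, lists and tests were chosen with earlier results of these data known. Within that choice, the 5 mismatch repair genes were taken by gene symbol and not by their values. Genes named by rule are the 5 mismatch repair genes, the 2 highest and the lowest detected gene per kb and every undetected gene of each list, the neighbours, and the 2 genes nearest in level to each of the 5. FAN1, PECAM1, POLD2, RFC1, RFC5, SETD2 and WRN fall outside this rule and are named with their values known. The comparison repair pathways are given by counts and medians, and their genes are named only where the text says that this was done after their values were seen. The alternatives were leaving out each library, other filters, a prior count of 0.5, size factors of DESeq2 1.42.0 or unadjusted totals, the voom form of limma, an upper-quartile reference, only protein-coding genes, other gene lengths and a threshold of 0.01.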

Additional observations from a re-analysis of the deposited data

How the results depend on the processing

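No paired analysis was possible because all 3 libraries belong to 1 group. MSH6 stayed above and MLH3 below the median gene, past the threshold, under all 11 alternatives on each scale. PMS2 turned above the median gene when every gene with at least 1 count in any library was tested (log2 distance 1.98, and 0.81 per kb), a filter that lowers the median gene, and 10592 genes were then called above and 10587 below by limma. With the upper quartile as the reference point MSH3 (-0.62) and PMS1 (-0.79) fell below it, with 3146 genes called above and 10426 below, by construction. Per kb of coding length MSH3 (-0.54) and PMS1 (-0.55) lay below the median gene. With the principal transcript's length, an alternative chosen after seeing the data, the mean log2 ratio of MSH3 to PMS1 was -0.17; the cause was not tested. At that length PMS2 was called below the median gene per kb (-0.30), as it was with coding length (-1.23) and with at least 1 CPM in every library (-0.31). PMS1 per kb lost its call without replicate 1 (limma adjusted p = 0.17), without replicate 3 (0.063) and with the 1 CPM filter (0.36), and its level lost it with that filter (0.052). PMS2's spread missed a threshold of 0.01. The count of genes whose spread exceeded counting error ranged from 5708 to 7888 with 1 library left out, the lowest without replicate 2. Of the results on single genes, 124 kept their direction and side of the threshold, 12 lost the call, 3 gained it and 6 reversed. The 1 group, the 3 libraries and the 26 to 73 counts of MLH3 limit precision.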
